A study of Mus musculus with 24 samples.

Results

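The mRNA levels of 10 genes of corticosteroid receptor signalling were followed in the mouse PFC: the receptor genes Nr3c1 and Nr3c2, the immunophilin genes Fkbp5 and Fkbp4, the chaperone genes Hsp90aa1, Hsp90ab1 and Ptges3, and the coregulator genes Ncoa1, Ncoa2 and Ncor1. They were chosen by gene symbol from a table of 14074 genes, and all 10 were present in it. Across phenotypes, the level of Fkbp5 rose by about 2 log2 units after dexamethasone (DEX), whereas both receptor mRNAs fell by 0.39 (Nr3c1) and 0.30 (Nr3c2) log2 units. The other 7 members did not pass limma's test in any DEX comparison, and no member passed it between stressed and control animals.

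Corticosterone, the main glucocorticoid of mice, acts through the glucocorticoid receptor (GR, gene Nr3c1) and the mineralocorticoid receptor (MR, gene Nr3c2), which binds it with the higher affinity and is known for its high level in limbic neurons. The unliganded receptor is held in a form able to bind hormone by HSP90 (genes Hsp90aa1 and Hsp90ab1) with the co-chaperone p23 (gene Ptges3). The immunophilin FKBP51 (gene Fkbp5) lowers its affinity for hormone, and exchange for FKBP52 (gene Fkbp4) accompanies its transport to the nucleus. There the receptor recruits coactivators of the p160 family (genes Ncoa1 and Ncoa2) or corepressors such as NCoR1 (gene Ncor1). Fkbp5 is itself a classic target of GR, so that FKBP51 closes an intracellular feedback loop. DEX is a synthetic glucocorticoid that binds GR with high selectivity.

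The samples were 24 male C57BL/6 mice aged 10 to 12 weeks, each giving 1 library of poly(A) RNA, in 6 groups of 4 animals. Intact control animals lived alone in their cage for 5 days. Passive coping (PS) and active coping (AS) animals had met aggressive CD1 males daily for 30 days of chronic social defeat stress, and were told apart by hierarchical clustering of their behaviour during contact on day 29. At 24 h after the last defeat, at 9 in the morning, mice of each phenotype received saline or 2 mg/kg DEX i.p., and the PFC was taken 6 h later. The controls thus differed from the stressed animals in housing as well as in defeat, and the dissected block held secondary motor, anterior cingulate, orbital, prelimbic and infralimbic cortex. The values are counts that the authors divided by a size factor per library (normalized counts), and log2 fold changes are differences of group means of log2(normalized count + 1) with a standard error (SE) and a 95% interval from limma, n = 4 mice per group. A gene was called at a Benjamini-Hochberg adjusted p under 0.1 over all 14074 genes.

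Depth ran from 21121869 to 59439645 reads on genes per library, with group medians of 34242531 and 37876626 in the saline and DEX groups of AS animals against 22869703 to 24187702 in the other 4 groups. The members were well covered, since the lowest count of any member in any library was 573 reads. Libraries of a group differed by a chi-square of 5.74 to 81.8 per gene, so that none was a copy of another. Libraries differed in the balance of long against short transcripts, measured as the median log2 deviation of 2971 genes with at least 7088 exon bases minus that of 2975 genes with at most 2998. It was lowest in AS DEX mouse 60 (-0.394), AS saline mouse 44 (-0.323), PS DEX mouse 34 (-0.298) and control DEX mouse 101 (-0.121), and ran from -0.0536 to 0.201 in the other 20. This measure was set up after the data had been seen, and values without these 4 libraries, or with the balance as a covariate, are given for the results named with them. The levels are those of whole tissue, in which fewer cells of a type and less RNA per cell cannot be told apart.

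The 10 genes are all annotated in mm10 as protein coding. Nr3c2 spans chr8:76899442-77245012 on the plus strand. Fkbp5 (chr17:28399094-28517527) and Fkbp4 (chr6:128429735-128438677) both lie on the minus strand. Hsp90aa1 (chr12:110690605-110702728) and Hsp90ab1 (chr17:45567775-45573271) are on the minus strand, and Ptges3 (chr10:128058954-128077272) is on the plus strand. The coregulator genes Ncoa1 (chr12:4247362-4477182), Ncoa2 (chr1:13139105-13374083) and Ncor1 (chr11:62316426-62458541) lie on the minus strand.

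RefSeq promoter windows of GRCm38.p6, from 250 bases before to 50 after a gene's start, were matched for 6 members in 7 windows. Windows for Nr3c1, Hsp90aa1, Hsp90ab1 and Ncoa2 were not matched. The stretches before the starts of the DEX-induced Fkbp5, of its paralog Fkbp4 and of the DEX-lowered Nr3c2 are printed side by side. Fkbp4 did not pass limma's test in any DEX comparison. Each is 200 bases, read 5′ to 3′ on the gene's strand, with GC boxes (GGGCGG) and CCAAT boxes (CCAAT) of either strand in capitals. The Fkbp5 stretch is chr17:28486150-28486349 (minus strand), inside the span of the gene, which has more distal starts too. The Fkbp4 stretch is chr6:128438678-128438877 (minus strand), just outside the gene and overlapping an exon of the antisense lncRNA Gm10069. The Nr3c2 stretch is chr8:76902088-76902287 (plus strand), also inside a gene with more distal starts.
Fkbp5: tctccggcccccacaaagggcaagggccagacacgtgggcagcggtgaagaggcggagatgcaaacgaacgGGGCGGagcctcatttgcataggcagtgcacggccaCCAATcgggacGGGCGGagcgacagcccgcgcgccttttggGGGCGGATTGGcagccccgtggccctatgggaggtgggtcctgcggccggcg
Fkbp4: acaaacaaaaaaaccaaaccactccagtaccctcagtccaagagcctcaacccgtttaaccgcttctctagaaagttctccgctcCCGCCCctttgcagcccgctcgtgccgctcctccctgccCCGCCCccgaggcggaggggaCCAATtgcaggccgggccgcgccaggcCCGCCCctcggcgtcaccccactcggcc
Nr3c2: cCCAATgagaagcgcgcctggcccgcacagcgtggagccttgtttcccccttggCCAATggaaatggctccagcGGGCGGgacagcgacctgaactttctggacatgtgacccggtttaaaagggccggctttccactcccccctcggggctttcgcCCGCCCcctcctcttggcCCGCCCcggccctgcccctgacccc

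The 3 stretches shared a high GC content (69.5%, 66.0% and 67.5% for Fkbp5, Fkbp4 and Nr3c2), 3 GC boxes each and 2, 1 and 2 CCAAT boxes. In the whole windows of 300 bases, Fkbp5, Fkbp4 and Nr3c2 had 4, 3 and 3 GC boxes and 2, 1 and 3 CCAAT boxes. Over all 32851 windows of 300 bases, 35.658% held a GC box and 37.408% a CCAAT box. The palindromic glucocorticoid response element, searched as GNACANNNTGTNC on both strands, was in 0.475% of all windows and in none of the 7 member windows. Its single arm AGAACA was in 18.974% of all windows, and among the members it occurred at 2 positions in 1 of the 2 Ncor1 windows and at 1 position in the Ncoa1 window. The heat shock element NGAANNTTCNNGAAN (0.597% of all windows) and the TATA box TATAAA (13.616%) were in none of them. These matches are letters within 300 bases and describe no binding.

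DEX and saline were compared within each phenotype to ask which members of the pathway respond to the hormone. In control animals 3 of 10 members were called (1 up, 2 down), against 6.49% of all genes tested. In PS animals 3 were called (1 up, 2 down), against 5.36% of all genes. In AS animals 2 were called (1 up, 1 down), against 8.77% of all genes. For the mean of the 3 phenotypes, 3 members were called (1 up, 2 down), against 15.5% of all genes. The median log2 fold change over the members was -0.12 (control), -0.02 (PS) and 0.05 (AS), beside medians over all genes of -0.00876, -0.00257 and 0.00241. The libraries of the groups did not overlap for 5, 2 and 3 members in control, PS and AS animals, against 10.1%, 10.1% and 9.02% of all genes.

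Nr3c1, the GR gene (mm10 chr18:39410545-39519421, minus strand), was lower after DEX in control and PS animals. Its normalized counts in saline-treated control mice 106, 107, 109 and 117 were 2972, 3336, 3271 and 2867, and in DEX-treated control mice 101, 108, 112 and 122 they were 1894, 2239, 2469.5 and 2203. Every DEX library lay below every saline library, and the mean fell from 3112 ± 227 to 2201 ± 237 (SD, n = 4), a log2 fold change of -0.50 ± 0.10 (SE, 95% interval -0.71 to -0.29, limma adjusted p = 0.00275). In PS animals the saline libraries (mice 2, 28, 62 and 68) were at 2934, 3158, 2952 and 3047, and the DEX libraries (mice 6, 34, 52 and 56) at 2439, 1861, 2937 and 2158. The level of mouse 52 reached that of the lowest saline animals, so that the groups overlapped, and the fold change was -0.38 ± 0.10 (SE, limma adjusted p = 0.0296). Without mouse 34 it was -0.28 with an adjusted p of 0.135 and was no longer called. The call was also lost without PS saline mice 2 and 62 (-0.42, limma adjusted p = 0.126).

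In AS animals Nr3c1 was at 2869.6, 2929, 2972 and 2666 with saline (mice 8, 14, 40 and 44) and at 2549, 2532, 2196 and 2137 with DEX (mice 38, 42, 60 and 72). All DEX libraries lay below all saline libraries, with a log2 fold change of -0.28 (95% interval -0.49 to -0.08), but the adjusted p of 0.105 from limma missed the threshold by little. With the balance of long against short transcripts as a covariate, Nr3c1 was at -0.51, -0.36 and -0.30 in control, PS and AS animals, with adjusted p of 4.14e-05, 0.00201 and 0.00798. Without the 4 libraries of the lowest balance it was at -0.43, -0.28 and -0.29 (adjusted p = 0.00264, 0.0567 and 0.0374), all called. Over all settings run, however, Nr3c1 was called in AS animals in only 11 of 36, so that this call depended on the setting. Averaged over phenotypes, the change was -0.39 ± 0.06 (SE, limma adjusted p = 3.04e-05), a level of 0.763 times that with saline.

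Nr3c2, the MR gene, was called lower after DEX in all 3 phenotypes. Control mice had normalized counts of 1139, 1113, 1187 and 1045 with saline and of 842, 883, 977 and 957 with DEX. PS mice had 1088, 1197, 1158 and 994 with saline and 915, 834, 887 and 829 with DEX. The groups did not overlap in either phenotype. AS mice had 1177, 1037, 1189 and 892 with saline and 920.1, 932, 741 and 973 with DEX. Here saline mouse 44 lay among the DEX animals, and it was also one of the libraries of low length balance. The log2 fold changes were -0.29, -0.35 and -0.27 in control, PS and AS animals (SE 0.09 each, limma adjusted p = 0.0679, 0.0244 and 0.0878), and the mean over phenotypes was -0.30 ± 0.05 (adjusted p = 0.000177), a level of 0.810 times that with saline. With the length balance as a covariate the changes were -0.30, -0.33 and -0.28 (adjusted p = 0.00518, 0.00224 and 0.00831), and without the 4 libraries of lowest balance -0.25, -0.34 and -0.27 (adjusted p = 0.0332, 0.00477 and 0.0216), all called. The calls in single phenotypes were lost in other settings. The PS value was -0.33 with an adjusted p of 0.224 without PS saline mice 2 and 62. Without 1 library at a time, the adjusted p of the control comparison was 0.151, 0.131 and 0.159 without saline mouse 106, 107 or 109, and 0.202 and 0.159 without DEX mouse 101 or 108. The AS call was lost when any 1 of 10 libraries was left out, with an adjusted p of up to 0.292. The call for the mean of the phenotypes held with each library left out.

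The ratio of Nr3c1 to Nr3c2 within a library does not depend on the size factor. In control animals it was 2.61 to 2.998 with saline and 2.25 to 2.54 with DEX, so that all DEX libraries lay lower (means 2.78 ± 0.162 and 2.40 ± 0.15, SD, n = 4). It overlapped in PS animals (2.74 ± 0.226 and 2.702 ± 0.448) and in AS animals (2.69 ± 0.263 and 2.66 ± 0.327). No test was run on the ratios.

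Fkbp5, the gene of FKBP51, showed the largest change of the members. Control animals were at 773, 761, 888 and 762 normalized counts with saline and at 4198, 3908, 3447 and 3727 with DEX. PS animals were at 938, 803, 979 and 803 with saline and at 3271, 3774, 3316 and 3765 with DEX. AS animals were at 819.5, 774, 878 and 1088 with saline and at 2931, 3484, 2965 and 4038 with DEX. Each DEX library was above every saline library of any phenotype, and the lowest DEX value (2931) belonged to an AS animal. The log2 fold changes were 2.26, 2.00 and 1.91 (SE 0.11, limma adjusted p = 9.3e-13, 1.35e-11 and 3.79e-11), or 4.79-fold, 4.01-fold and 3.77-fold, and 2.06 ± 0.06 (SE) for the mean of the phenotypes. These folds were about the same with the length balance as a covariate (2.26, 2.00 and 1.92).

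**Figure D1:**
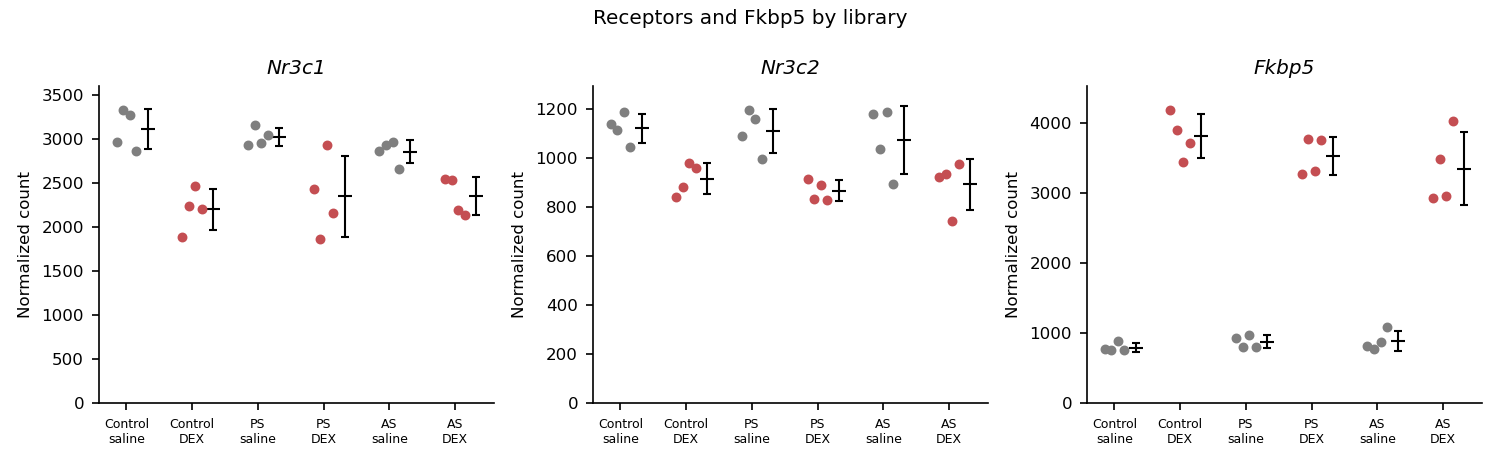
Normalized counts of Nr3c1, Nr3c2 and Fkbp5 in each library (grey, saline; red, DEX) with the mean and SD of the 4 mice of a group beside the points. Fkbp5 lies between 2931 and 4198 in DEX libraries and between 761 and 1088 in saline libraries, while Nr3c1 and Nr3c2 shift down with some overlap in PS and AS animals respectively.

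Fkbp4, the gene of FKBP52, did not pass the test in any phenotype. Control animals had 2794, 2532, 2395 and 2766 normalized counts with saline and 2249, 2231, 2236 and 2270.1 with DEX. The DEX libraries lay within a narrow band below all saline libraries, but the log2 fold change of -0.22 (95% interval -0.39 to -0.05) had a limma adjusted p of 0.140. With the length balance as a covariate it was -0.21 with an adjusted p of 0.00553, and without the 4 libraries of lowest balance -0.22 with an adjusted p of 0.0334, both called. Over all settings run, Fkbp4 was called in control animals in only 6 of 36. In PS animals the means were 2584 ± 117 with saline and 2527 ± 241 with DEX, and in AS animals 2669 ± 227 and 2611 ± 337 (SD, n = 4). The fold change was -0.04 in both. The mean over phenotypes was -0.10 (95% interval -0.19 to -0.002, limma adjusted p = 0.212). It was called in 4 of 35 settings, among them with the covariate (-0.10, adjusted p = 0.0155) and without the 4 libraries (-0.12, adjusted p = 0.0172). The libraries were strand-specific, as the paper states, but the strand setting of the counting is not given in the sources used here. The Fkbp4 counts may thus hold reads of the antisense lncRNA Gm10069, whose overlap with Fkbp4 exons is not given here.

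The ratio of Fkbp5 to Fkbp4 reads averaged 0.306 ± 0.0448 with saline and 1.70 ± 0.14 with DEX in control animals (SD, n = 4). The PS means were 0.342 ± 0.0468 and 1.40 ± 0.149, and the AS means 0.332 ± 0.0271 and 1.31 ± 0.34. The saline libraries spanned 0.276 to 0.388 and the DEX libraries 0.964 to 1.87, with AS mouse 60, a library of high Fkbp4 and low length balance, at the lower end. On the log2 scale the mean ratio was higher by 2.48, 2.04 and 1.95 in control, PS and AS animals. This ratio is of reads and is not corrected for the longer Fkbp5 transcript.

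The HSP90 genes and Ptges3 were not called by limma in any DEX comparison. Hsp90aa1, the stress-inducible cytosolic HSP90, had normalized counts of 26988, 26962, 26097 and 26631 in saline-treated and of 21556, 26208, 26905 and 23229 in DEX-treated control animals. PS animals were at 29497, 28465, 29120.2 and 28715 with saline and at 28597, 31639, 28119 and 28581 with DEX, and AS animals at 22569, 25353, 23609 and 31665 with saline and at 28058, 31509, 32572 and 28755 with DEX. Among AS animals, saline mouse 44 stood apart from the other saline mice and within the range of the DEX mice. The log2 fold changes were -0.13, 0.01 and 0.24 in control, PS and AS animals (SE 0.09, limma adjusted p = 0.533, 0.979 and 0.114). Without saline mouse 44 the AS value was 0.34 (adjusted p = 0.00532), and without the 4 libraries of lowest length balance 0.30 (adjusted p = 0.00291). It was also called by DESeq2 (0.23, adjusted p = 0.0764), when only genes averaging 100 or more were tested (0.24, adjusted p = 0.099) and with the length balance as a covariate (0.25, adjusted p = 0.045), so that the call depended on the libraries and on the method. About 47.5% of the 50-base words of Hsp90aa1 occur in other annotated transcripts, mainly its pseudogenes Gm12346, Gm5844 and Gm5511, so that its count is uncertain. Gm12346 had 62.7 to 131 normalized counts, at most 0.428% of those of Hsp90aa1.

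Hsp90ab1, the constitutive HSP90, had group means from 39236 ± 760.1 (control, DEX) to 44311 ± 1385 (AS, DEX; SD, n = 4). In control animals all DEX libraries (38479 to 39896) lay below all saline libraries (41004 to 45455), and in AS animals all DEX libraries (42895 to 46139.7) lay above all saline libraries (39759 to 42786). Neither difference passed limma's test, with log2 fold changes of -0.12 (adjusted p = 0.307) and 0.10 (adjusted p = 0.389), and the PS value was 0.05. Quantile normalization gave -0.16 with an adjusted p of 0.0586 in control animals and DESeq2 gave -0.13 with an adjusted p of 0.09, both called. Ptges3, the gene of p23, ran from 2306 to 3151 normalized counts over the 24 libraries, with log2 fold changes of 0.04, -0.04 and 0.03 and overlapping groups. It shares 19.6% of its 50-base words with pseudogenes, of which Ptges3-ps had at most 20.5 normalized counts. The ratio of Hsp90aa1 to Hsp90ab1 had group means of 0.623 to 0.695 and overlapped between DEX and saline in each phenotype.

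The coregulator genes were not called between DEX and saline in any phenotype. Ncoa1, a p160 coactivator also named SRC-1, ran from 3640.1 to 5203 normalized counts, and its log2 fold changes were -0.03, 0.05 and 0.09 in control, PS and AS animals. Ncoa2, the p160 coactivator also named GRIP1, ran from 2191 to 3876, with changes of -0.12, -0.00335 and 0.06. Ncor1, a corepressor that recruits histone deacetylase, ran from 6310.1 to 9322, with changes of -0.11, -0.04 and 0.05. For the mean of the phenotypes, the 7 members other than the receptors and Fkbp5 had log2 fold changes of -0.10 to 0.04, or 0.935 to 1.03 times the saline level, with 95% intervals that together ran from -0.19 to 0.14.

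**Figure D2:**
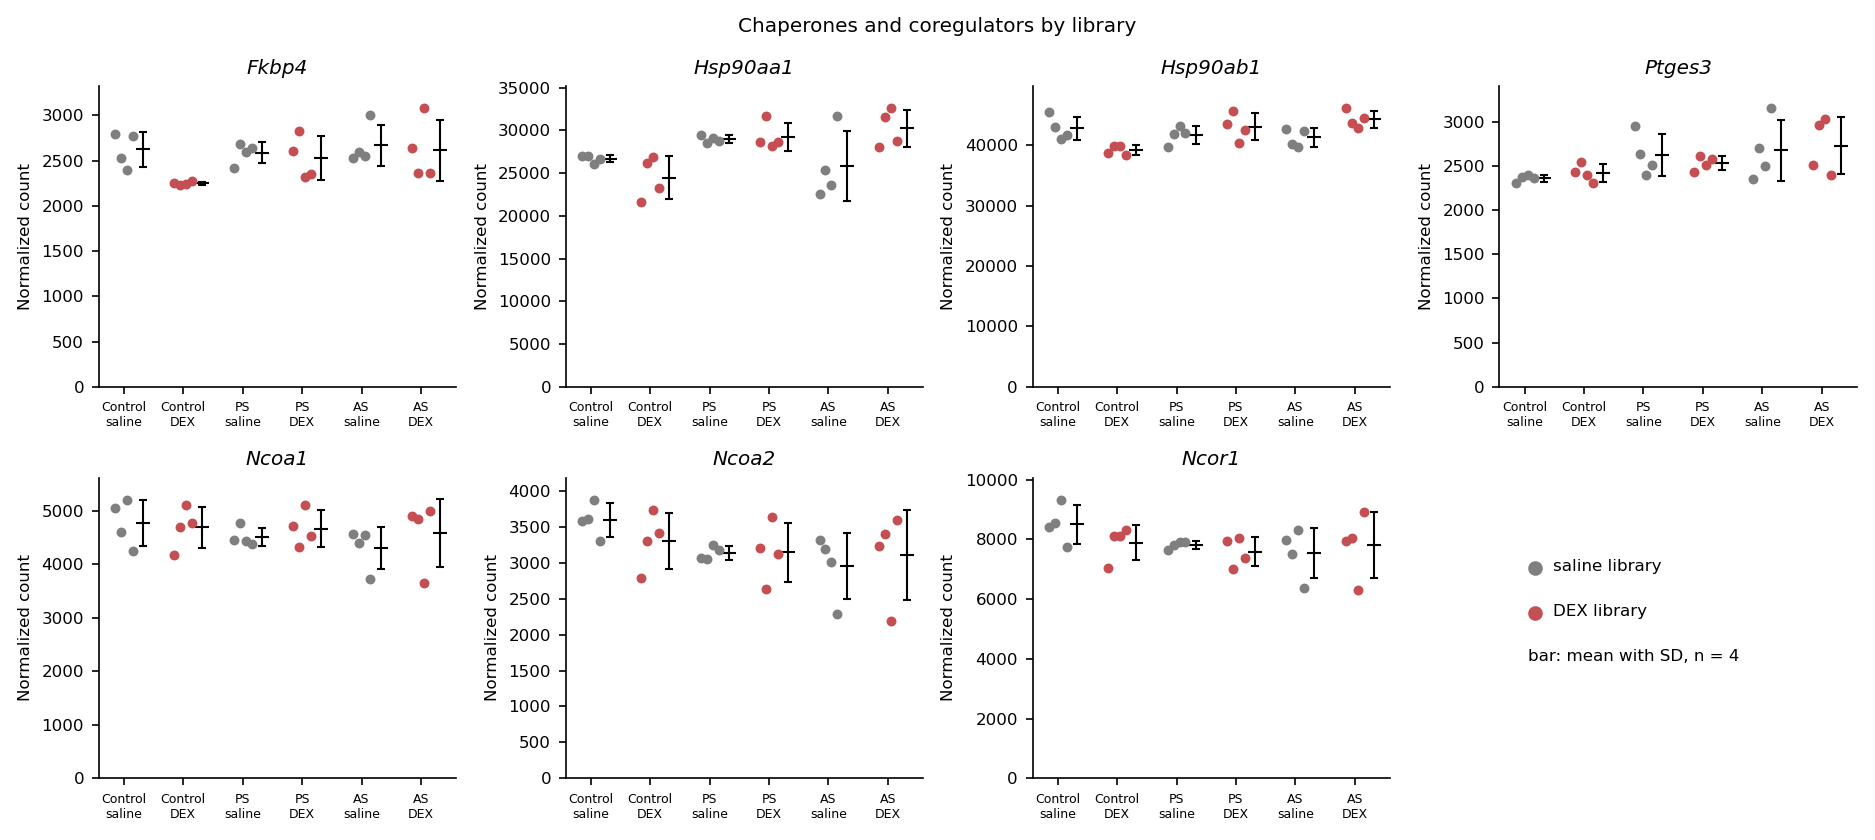
Normalized counts of the 4 chaperone genes and 3 coregulator genes in each library (grey, saline; red, DEX), with the mean and SD of the 4 mice of a group. DEX and saline libraries overlap in most panels, and the Fkbp4 libraries of DEX-treated control animals sit close together between 2231 and 2270.1.

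**Figure D3:**
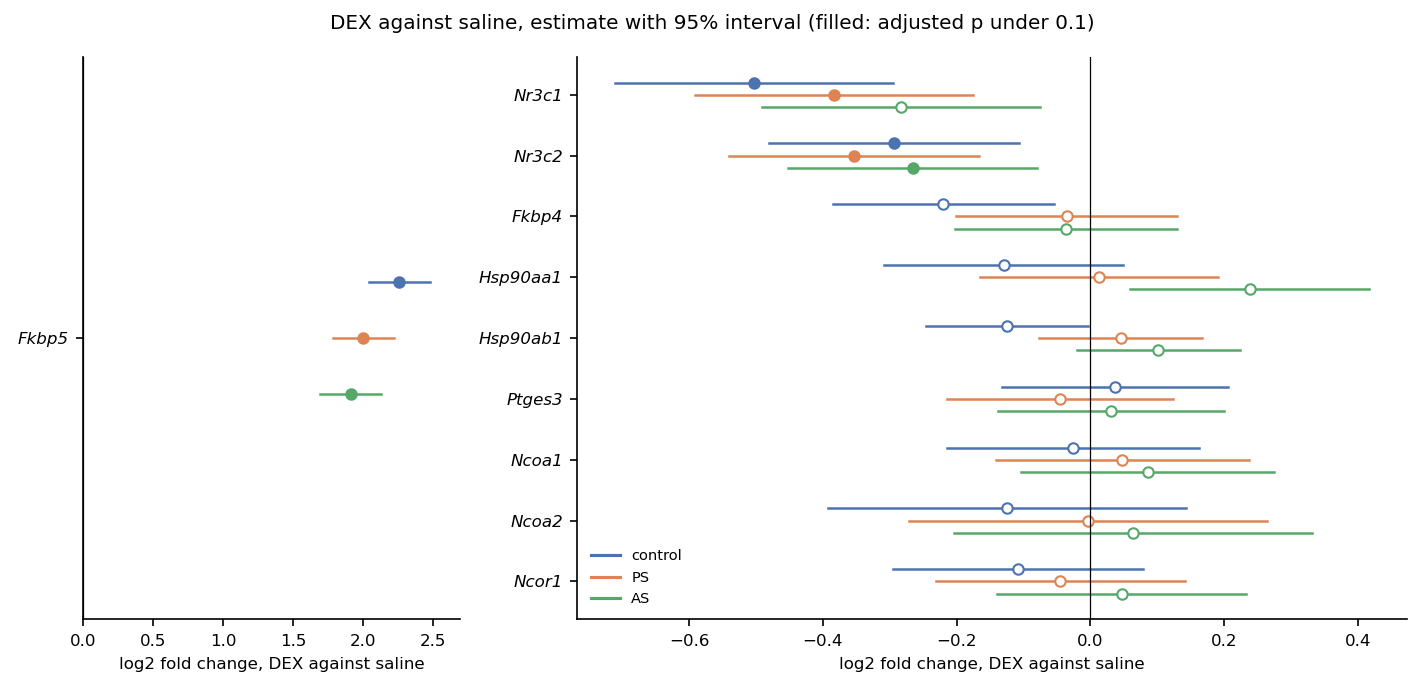
Estimated log2 fold changes of DEX against saline (points) with 95% intervals (lines) from limma in control, PS and AS animals, with Fkbp5 on an axis of its own and filled points for an adjusted p under 0.1. Fkbp5 lies at 1.91 to 2.26, the receptors at -0.50 to -0.27, and the intervals of most other members include 0.

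Levels between genes were set on a scale per kilobase of merged exons, in saline-treated control animals (mean ± SD, n = 4). Hsp90ab1 (14270.4 ± 656 normalized counts per kb) and Hsp90aa1 (6784 ± 106) stood highest, followed by Ptges3 (1063 ± 16.8), Fkbp4 (938 ± 68.5), Ncor1 (664 ± 50.6) and Ncoa1 (557 ± 50.1). Nr3c1 (405 ± 29.6), Ncoa2 (229.7 ± 15.1), Nr3c2 (173 ± 9.16) and Fkbp5 (84.1 ± 6.51) stood lowest. Only Ncor1 and Ncoa1 overlapped among neighbours in this order. After DEX, Fkbp5 in control animals was at 403 ± 33.3 per kb, above Nr3c1 at 286 ± 30.8, a comparison that was not tested.

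Stressed and control animals were compared with saline to ask whether defeat alone was associated with other levels of these genes. None of the 10 members was called in PS animals (1.51% of all genes were) or in AS animals (0.156% of all genes), with 0 and 2 members at an unadjusted p under 0.05 in limma, and 0 called by edgeR and DESeq2. The number of all genes at that unadjusted threshold is not given here for these comparisons. Nr3c1 differed from control by a log2 fold change of -0.04 (95% interval -0.25 to 0.17) in PS and -0.12 (-0.33 to 0.09) in AS animals, and Nr3c2 by -0.02 (-0.20 to 0.17) and -0.07 (-0.26 to 0.12). Fkbp5 was at 0.14 (-0.08 to 0.36) in PS and 0.15 (-0.07 to 0.37) in AS animals. With 4 animals per group, differences of any size within these intervals remain possible. The members at an unadjusted p under 0.05 were Ncoa2 (-0.30, limma adjusted p = 0.407) and Ptges3 (0.17, limma adjusted p = 0.446), both in AS animals. These values rested in part on AS saline mouse 44, without which Ncoa2 was at -0.18 and Ptges3 at 0.09, and with the length balance as a covariate they were -0.14 and 0.13. In PS animals, all saline libraries of Ncoa2 (3046 to 3254) lay below all control libraries (3299 to 3876), and all of Hsp90aa1 (28465 to 29497) lay above them (26097 to 26988), with log2 fold changes of -0.20 and 0.12 and limma adjusted p of 0.547 and 0.591. The share of all genes without overlap between PS and control animals with saline is not given here. Without the 4 libraries of lowest length balance, none of which is in these 2 groups, the Ncoa2 difference was the same in size (-0.20) with an adjusted p of 0.0654, the only call in 36 settings. With the length balance as a covariate it was -0.13 with an adjusted p of 0.176. AS and PS animals with saline had no member called (0% of all genes were called, and 671 had an unadjusted p under 0.05), and only Hsp90aa1 had an unadjusted p under 0.05 (-0.18, limma adjusted p = 0.934). By edgeR and DESeq2, 0 members were called here.

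With DEX, the HSP90 genes and Fkbp4 of stressed animals stood above those of control animals, but none was called. Hsp90aa1 was higher than in DEX-treated controls by 0.26 ± 0.09 (SE) in PS and by 0.31 ± 0.09 in AS animals on the log2 scale, with limma adjusted p of 0.209 and 0.117. All PS (28119 to 31639) and AS libraries (28058 to 32572) lay above the control libraries, of which the highest was 26905. Hsp90ab1 (0.13 and 0.18, limma adjusted p = 0.324 and 0.192) and Fkbp4 (0.17 and 0.21, adjusted p = 0.357 and 0.258) were also above the controls in every library. The share of all genes whose libraries did not overlap in these comparisons is not given here, so the separation is description only. Fkbp4, whose level ran opposite to the length balance (r = -0.85 within groups), was at 0.11 (PS) and 0.13 (AS) with the balance as a covariate, at 0.11 and 0.13 without the 4 libraries of lowest balance, and at 0.13 in AS animals without mouse 60. Hsp90aa1 was at 0.16 and 0.21 without the 4 libraries (adjusted p = 0.325 and 0.179), and was called in 1 of 36 settings in PS and 5 of 36 in AS animals. Both comparisons share the 4 DEX-treated control animals. Over all genes, 0.199% were called between PS and control and 0.867% between AS and control. At an unadjusted p under 0.05 in limma there were 2 members in PS (Hsp90aa1 and Hsp90ab1) and 3 in AS animals (Hsp90aa1, Hsp90ab1 and Fkbp4). The number of all genes at this unadjusted threshold is not given here. By edgeR 0 members were called in either phenotype, and DESeq2 called 0 in PS and 2 in AS animals, Hsp90aa1 and Hsp90ab1. The receptors were between -0.08 and 0.10, and Fkbp5 was at -0.11 in PS and -0.20 in AS animals (limma adjusted p = 0.672 and 0.421). Between AS and PS animals with DEX, 0 members and 0% of all genes were called, 580 genes and 0 members had an unadjusted p under 0.05 in limma, and edgeR and DESeq2 called 0 members.

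**Figure D4:**
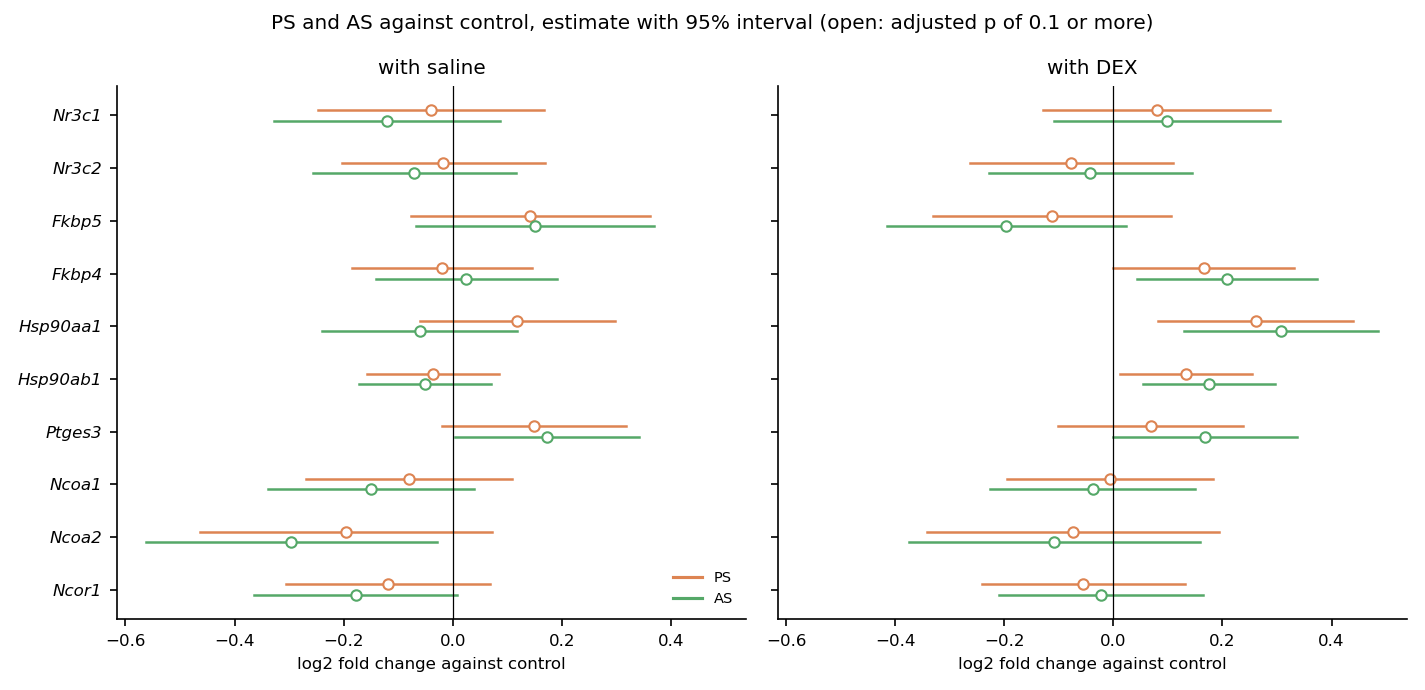
Estimated log2 fold changes of PS and AS against control animals (points) with 95% intervals (lines) from limma, with saline on the left and DEX on the right; open points have an adjusted p of 0.1 or more. All points are open, and with DEX the intervals of Hsp90aa1 and Hsp90ab1 in both phenotypes, and of Fkbp4 in AS animals, lie above 0.

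Whether the DEX response itself differed between phenotypes was tested as an interaction. No member was called for PS minus control, AS minus control or AS minus PS, where 0%, 0.348% and 0% of all genes were, and 1404, 1902 and 344 genes had an unadjusted p under 0.05 in limma. By edgeR 0 members were called in all 3, and DESeq2 called 1, Hsp90ab1, for AS minus control (0.23, adjusted p = 0.0367) and 0 in the others. The Fkbp5 response differed from that of control animals by -0.26 in PS (95% interval -0.56 to 0.05, limma adjusted p = 0.592) and by -0.35 in AS animals (-0.66 to -0.04, adjusted p = 0.301). The AS value was -0.35 with the length balance as a covariate (adjusted p = 0.189), -0.19 without AS saline mouse 44 and AS DEX mouse 60 (adjusted p = 0.488) and -0.14 without the 4 libraries of lowest balance (adjusted p = 0.662). The Nr3c1 response differed by 0.12 (-0.18 to 0.41) and 0.22 (-0.08 to 0.51), and the Nr3c2 response by -0.06 (-0.32 to 0.20) and 0.03 (-0.24 to 0.29). The call of Nr3c1 in control and PS but not in AS animals is thus no difference between phenotypes that a test has shown. For AS minus control, 3 members had an unadjusted p under 0.05: Fkbp5, Hsp90aa1 (0.37, limma adjusted p = 0.177) and Hsp90ab1 (0.23, adjusted p = 0.219). Hsp90aa1 was called in this interaction in only 5 of 36 settings. Among these were the fits without AS saline mouse 44 (0.47, adjusted p = 0.033), without the 4 libraries of lowest length balance (0.37, adjusted p = 0.0589) and with that balance as a covariate (0.37, adjusted p = 0.0749). The difference was made up of a DEX value below saline in control animals and above it in AS animals.

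Within groups the members varied together in part. Of the 45 pairs of members, the correlation of deviations from the group means over the 24 libraries ran from -0.815 to 0.918, with a median of -0.0845. The coregulators had the highest values, with r of 0.918 between Ncoa1 and Ncoa2, 0.914 between Ncoa2 and Ncor1 and 0.91 between Ncoa1 and Ncor1. Nr3c2 was close to Ncoa1 (0.877), and Hsp90aa1 to Ptges3 (0.721), whereas Fkbp4 ran opposite to Ncoa2 (-0.815). The same axis was seen in the length balance of the libraries, whose deviations had an r of 0.928 with Ncoa2, 0.903 with Ncor1, 0.855 with Ncoa1, 0.729 with Nr3c1, 0.714 with Nr3c2 and -0.85 with Fkbp4, and of -0.148 with Fkbp5 (Spearman's rho 0.826, 0.856, 0.774, 0.69, 0.625, -0.73 and -0.0991). Without the 4 lowest libraries (20 libraries) these r were 0.606, 0.667, 0.48, 0.608, 0.193, -0.67 and 0.192, so that the value of Nr3c2 rested on those libraries. The transcripts of the first 3 are long, with 15642 (Ncoa2), 12811 (Ncor1) and 8576 (Ncoa1) merged exon bases, against 2795 for Fkbp4, but Fkbp5 has 9468. Correlations with depth were between -0.27 and 0.238. The points share size factors, and what sets this balance was not tested.

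**Figure D5:**
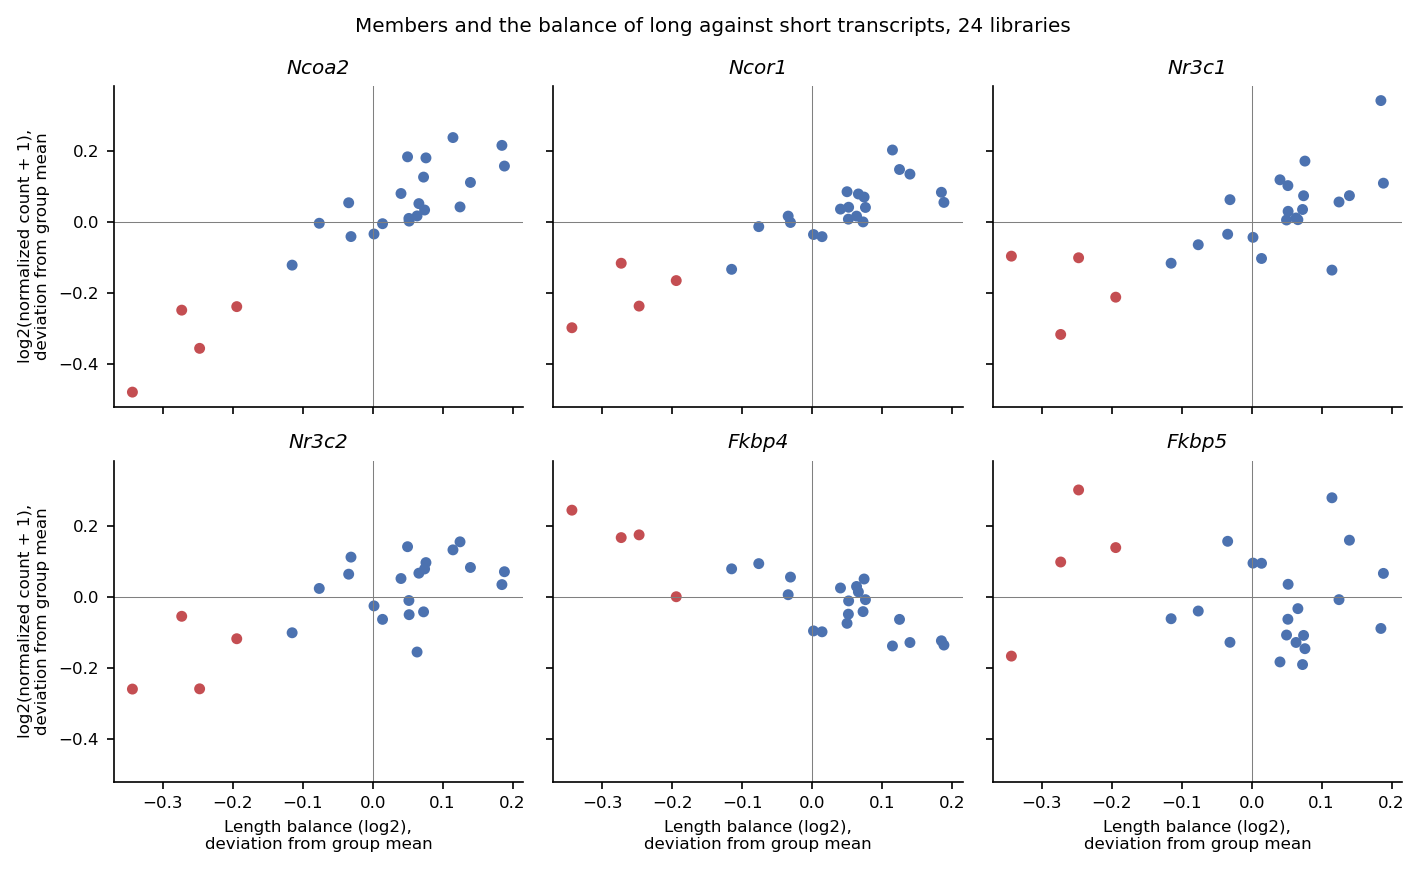
Deviation of 6 members from their group means, on the log2(normalized count + 1) scale, against the deviation of the length balance of each of the 24 libraries, with the 4 libraries of lowest balance in red. Ncoa2, Ncor1, Nr3c1 and Nr3c2 run up with the balance (r = 0.928, 0.903, 0.729 and 0.714), Fkbp4 runs down (r = -0.85), and Fkbp5 shows little relation (r = -0.148).

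The other genes of the pathway were counted in lists drawn from background knowledge. Of 22 further HSP70 and HSP90 co-chaperone genes, 0 were called in each phenotype, and for the mean of the phenotypes 1 was higher, Dnajb1, an HSP40 gene (log2 fold change 0.10, limma adjusted p = 0.0639). The median log2 fold change over the list was -0.03, 0.06 and 0.06 in control, PS and AS animals. Of 18 further receptor coregulators, 0 were called in control and PS animals and 1 in AS animals, Ppargc1a, the coactivator PGC-1alpha, which rose from 1189 ± 123 to 1739 ± 112 normalized counts there (0.55, limma adjusted p = 0.000841). For the mean of the phenotypes it was at 0.28 (adjusted p = 0.000878), and Prmt1, an arginine methyltransferase that acts as a coactivator, fell by 0.12 (adjusted p = 0.0906). Of 12 importin and dynein genes of nuclear transport and 4 measured genes of ligand handling (of 7 listed), 0 were called after DEX. Between DEX and saline, limma called 6.49% (control), 5.36% (PS), 8.77% (AS) and 15.5% (mean of the phenotypes) of all genes. The calls in these lists did not exceed those shares, so they are results for single genes and do not set a list apart. In the stress comparisons and interactions, these lists had 2 coregulators called lower in PS animals with saline and 1 gene of ligand handling called lower in AS animals with DEX. Of all genes, 0.796% and 0.76% were called lower in these comparisons against control.

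The list of GR targets held 18 genes other than Fkbp5. Of these 12, 16 and 12 were called higher in control, PS and AS animals and 17 for the mean of the phenotypes, while 0 were called lower. Of all genes, 4.03%, 2.74% and 3.82% were called higher in control, PS and AS animals, and 7.46% for the mean. The list was put together with earlier results of these data known and is no independent evidence of the direction. Its median log2 fold changes were 0.64, 0.67 and 0.62, below the 1.91 to 2.26 of Fkbp5. Plin4, a lipid droplet protein gene, moved most (3.65, 4.59 and 4.34 in control, PS and AS animals), from 85.2 ± 56.4 to 954 ± 87.8 normalized counts in control animals, followed by Sult1a1, a phenol sulfotransferase gene (1.57, 1.34 and 1.22), and Arrdc2, an arrestin domain gene (1.27, 1.47 and 1.15). Each of these was called by limma in each phenotype. The genes most like Fkbp5 over the 24 libraries, among 12018 genes averaging 100 or more normalized counts, were Pla2g3 (r = 0.983), Smim3 (0.983), Tsc22d3 (0.981), Cmtm3 (0.979) and Spns2 (0.978). Those most like Nr3c1 were Kif16b (r = 0.924), Raph1 (0.917), Eml1 (0.881), Slit2 (0.872) and Cdh11 (0.866), and those most like Nr3c2 were Nectin3 (0.898), Chd4 (0.889), Gli3 (0.882), Adamts3 (0.877) and Celsr1 (0.874). These r describe libraries that share groups and size factors.

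The tissue was checked against marker genes of its cell types. The pyramidal neuron markers Slc17a7, Tbr1, Neurod2 and Neurod6 were present in every library, as were the markers of GABAergic neurons (summed level 16980 to 27663 normalized counts) and astrocytes (23415 to 32598). Some lists moved with DEX beside the members. Over all genes, 2.46%, 2.62% and 4.95% were called lower and 4.03%, 2.74% and 3.82% higher in control, PS and AS animals. Microglial markers had 2, 3 and 3 of 5 genes called lower in control, PS and AS animals, with a summed level of 5834 to 6784.4 in saline-treated and 4568.7 to 5225.4 in DEX-treated AS animals. In AS animals, 3 of 5 endothelial and 3 of 5 mural markers were called lower after DEX (summed level 3856.9 to 6247.9 against 2763.5 to 4099.9 and 4351 to 7651 against 3315 to 4358.4), and 2 of 5 oligodendrocyte markers higher (17191 to 30235 against 28505 to 42594). In control animals the oligodendrocyte markers went the other way, with 1 of 5 called lower and a median log2 fold change of -0.30, against 0.16 in PS and 0.50 in AS animals. Of the 5 astrocyte markers, 1 was called higher in control animals, 1 higher and 1 lower in PS and 2 lower in AS animals. Of the 4 pyramidal markers named, Neurod6 was called lower in control animals, and Neurod2 and Tbr1 higher in AS animals. The 3 striatal markers measured were at 2919.1 to 3786.3 in saline and 3654.2 to 5611.1 in DEX libraries, with 1, 1 and 2 called higher in control, PS and AS animals. Between AS and control animals with DEX, where the HSP90 genes and Fkbp4 stood higher but were not called by limma, 2 endothelial and 3 mural markers were called lower. Of all genes, 0.76% were called lower there. Leptomeningeal and blood markers had summed levels of 1103 to 3971.6 and 1123 to 4385.7, and the choroid plexus marker Aqp1 9.21 to 199.9. No marker measured was at 0 in any library. Between stressed and control animals with saline, limma called 0 markers, against 1.51% (PS) and 0.156% (AS) of all genes. The part of these cell types in the levels of the members was not tested.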

How the data were processed

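Libraries of the PFC of 24 mice were analysed, with groups and mouse numbers taken from the library names, in which dep1 was read as PS and dep2 as AS. Those of the DRN were not analysed here. The authors trimmed reads with fastp 0.20.1, aligned them to mm10 with HISAT2 2.2.1 and counted reads on GENCODE vM22 genes by featureCounts of Subread 2.0, per the paper's methods and the submitters' processing notes. The signal values that the authors deposited are gene counts divided by a DESeq2 size factor per library. In each library 100% of these values were whole multiples of the worth of 1 read, within 0.01 read, so that reads were recovered for depth and count models. Reads shared by a gene and its copies cannot be reassigned from them. Log2 fold changes and p-values of the authors' own DESeq2 comparisons were not used.

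The main test was limma 3.58.1 (R 4.3.3, trended eBayes) on log2(normalized count + 1), with 6 group means and all 24 libraries in 1 model over all 14074 genes, at a Benjamini-Hochberg adjusted p under 0.1. The step was tested on simulated data. Alternatives were a pseudocount of 8, genes with a mean of at least 100 or 10, quantile normalization, only the groups compared, library size as a covariate, edgeR 4.0.16 and DESeq2 1.42.0 on the recovered reads, each library left out in turn, and PS saline mice 2 and 62 left out (highest ribosomal share in the study's quality table). Leaving out AS saline mouse 44 and AS DEX mouse 60, leaving out the 4 libraries of lowest length balance, and the length balance as a covariate were added after seeing the data. Depth limits counting precision little for the members, of which the lowest count was 573 reads.

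The members and lists were chosen with earlier results of these data known. Named were all 10 members, up to 3 genes of each list with the largest change for the mean of the 3 phenotypes among those called, and the 5 genes most correlated with Nr3c1, Nr3c2 and Fkbp5. Gene lengths, shared 50-base words and promoter windows came from the reference annotation and RefSeq tables. Some genes of the lists are not reported here.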

Additional observations from a re-analysis of the deposited data

Results flagged for a closer look

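Of 60 sets of 4 libraries (10 members in 6 groups), 5 held 1 library whose gap to the nearest other exceeded Dixon's 95% critical share of the range of its group, where chance gives about 1 in 20. In saline-treated control animals, mouse 109 was above the others for Fkbp5 at 888 normalized counts, the gap being 0.903 of the range. In saline-treated AS animals, mouse 44 was above the others for Fkbp4 at 3008 (0.877 of the range). In DEX-treated PS animals, mouse 34 was above the others for Hsp90aa1 at 31639 (0.864). In DEX-treated AS animals, mouse 60 was below the others for Ncoa1 at 3640.1 (0.889), and in DEX-treated control animals mouse 101 was below the others for Ncor1 at 7027 (0.833). Mice 44, 34, 60 and 101 are also the 4 libraries with the lowest balance of long against short transcripts (-0.323, -0.298, -0.394 and -0.121), and whether that balance sets these levels was not tested.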

How the results depend on the processing

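No result named here changed direction among called values under any alternative. Fkbp5 was called in each phenotype in all 36 settings, Nr3c1 in control animals in 36 of 36, and both receptors for the mean of the phenotypes in 35 of 35. The number of members called after DEX in PS animals was 1 in place of 3 without PS saline mice 2 and 62. In AS animals it was 1 in place of 2 with library size as a covariate and without PS saline mice 2 and 62, and 4 with DESeq2, without the 4 libraries of lowest length balance and with that balance as a covariate, where Nr3c1 and Hsp90aa1 joined. Against control with saline, PS animals had 1 member called without the 4 libraries. With DEX, PS animals had 1 and AS animals 1 without AS saline mouse 44 and AS DEX mouse 60, and AS animals had 2 with DESeq2. The DEX response of AS minus control had 1 with DESeq2, without these 2 mice and without the 4 libraries, and 2 with the covariate (Hsp90aa1 and Hsp90ab1). Leaving out single libraries, the number ranged from 1 to 4 for DEX in AS animals, from 0 to 1 for AS against control with DEX, and from 0 to 1 for the DEX response of AS minus control. The cause was not tested. With all genes kept the fit is the one reported, since no filter was applied to it, and the mean of the phenotypes has no value from only the groups compared. No paired analysis was possible because mouse numbers do not recur between the groups compared.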
